A study of Homo sapiens with 4 samples.

Results

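Pluripotency rests on a small circuit of transcription and chromatin factors, and 10 of their genes are described here after depletion of UPF1 in human embryonic stem cells. They are POU5F1, SOX2, NANOG, LIN28A, DPPA2, DPPA4, UTF1, ZFP42, PRDM14 and DNMT3B, chosen by gene symbol, and all 10 were among the 15942 genes of the deposited count table. The cells were H9, a widely used human embryonic stem cell line, grown on Matrigel in E8 medium, and each of 2 conditions was sequenced in 2 libraries. In the siUPF1 libraries the cells had received a small interfering RNA (siRNA) against UPF1, the helicase at the core of nonsense-mediated mRNA decay, and in the siLuc control libraries an siRNA against luciferase, which human cells do not carry. Whether the libraries of a condition stem from different cultures is not stated, and p-values here therefore reflect library-to-library spread that could be technical. The labels give no time of RNA extraction for a library, although their treatment text speaks of an actinomycin D time course and names an siRNA against UPF3A and not the one against UPF1.

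The protein products of POU5F1 (OCT4), SOX2 and NANOG bind DNA together at the enhancers of embryonic stem cell genes, their own among them, and keep the cells undifferentiated. OCT4 and SOX2 bind side by side, OCT4 at the octamer motif and SOX2 at a motif next to it. LIN28A is an RNA-binding protein that blocks maturation of the let-7 microRNAs, DNMT3B is a de novo DNA methyltransferase, and UTF1, DPPA2 and DPPA4 are chromatin-associated proteins of undifferentiated cells. Nonsense-mediated decay degrades transcripts whose stop codon is read as premature, and such a reading is favoured by an exon junction well downstream of the stop, by a long 3' untranslated region (UTR) and by upstream open reading frames.

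The promoters of 4 factors are shown because they are those of 2 core genes, NANOG and SOX2, and of the 2 genes with the largest decreases, UTF1 and DPPA2. RefSeq promoter windows on GRCh38.p14, running from 250 bases before to 50 bases after the annotated start, were available for 7 of the 10 genes. No promoter sequence is given for POU5F1, LIN28A and PRDM14. The NANOG window lies at chr12:7789152-7789451 on the plus strand, and its capitals mark a match to the composite motif of an octamer next to a SOX site. The SOX2 window lies at chr3:181711675-181711974 on the plus strand, and its capitals mark the octamer core ATGCAAA. The UTF1 window lies at chr10:133229967-133230266 on the plus strand, with GC boxes (GGGCGG) in capitals. The DPPA2 window, at chr3:109316468-109316767 on the minus strand, held none of these 3 motifs and has no capitals.
NANOG: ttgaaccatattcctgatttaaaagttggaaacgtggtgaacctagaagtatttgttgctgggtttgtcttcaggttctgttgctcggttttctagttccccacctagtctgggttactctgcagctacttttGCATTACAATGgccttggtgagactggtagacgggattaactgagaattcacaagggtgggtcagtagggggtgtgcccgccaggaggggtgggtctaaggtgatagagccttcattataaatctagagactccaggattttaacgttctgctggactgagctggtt
SOX2: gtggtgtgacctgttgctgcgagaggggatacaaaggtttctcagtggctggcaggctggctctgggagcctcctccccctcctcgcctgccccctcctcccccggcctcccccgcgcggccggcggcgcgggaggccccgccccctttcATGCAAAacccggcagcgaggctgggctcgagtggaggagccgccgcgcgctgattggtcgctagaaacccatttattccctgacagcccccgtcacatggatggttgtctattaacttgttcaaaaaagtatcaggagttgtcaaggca
UTF1: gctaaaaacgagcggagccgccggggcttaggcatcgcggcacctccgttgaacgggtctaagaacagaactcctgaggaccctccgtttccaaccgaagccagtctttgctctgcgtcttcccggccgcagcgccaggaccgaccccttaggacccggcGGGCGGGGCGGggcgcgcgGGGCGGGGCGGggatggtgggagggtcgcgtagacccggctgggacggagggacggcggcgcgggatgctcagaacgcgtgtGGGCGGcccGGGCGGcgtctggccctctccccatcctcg
DPPA2: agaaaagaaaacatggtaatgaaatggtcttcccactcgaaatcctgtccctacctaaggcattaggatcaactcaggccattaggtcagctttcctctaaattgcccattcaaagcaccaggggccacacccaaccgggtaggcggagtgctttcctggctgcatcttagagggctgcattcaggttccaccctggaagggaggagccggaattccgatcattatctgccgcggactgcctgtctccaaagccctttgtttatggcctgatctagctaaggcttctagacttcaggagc

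Each motif was sought on both strands, and the letters were chosen with these promoters in view, so the matches are descriptions. The composite motif, in which 1 base is left free, began at position -117 from the NANOG start, where it overlaps an octamer core on the minus strand, and NANOG was the only 1 of the 7 windows to hold it. It occurred in 33 of 35116 promoter windows, or 0.094%. An octamer core began at -100 from the SOX2 start, and this motif occurred in SOX2 and NANOG among the 7 and in 4.46% of all windows. GC boxes occurred in the UTF1, ZFP42, SOX2 and DPPA4 windows and in 45.0% of all windows, with 6 matches in UTF1, some overlapping one another. The GC content of the 7 windows ran from 45.3% in DPPA4 and 46.7% in NANOG to 69.3% in ZFP42 and 71.7% in UTF1, against a median of 58.7% over all windows.

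The siUPF1 libraries held 10058515 and 11200973 counts, in replicates 1 and 2, and the siLuc libraries 8887239 and 9937231, called control a and control b because the table gives both columns the same name. UPF1 averaged 69.5 ± 12.3 CPM (counts scaled to library size with TMM factors) in siUPF1 libraries and 212 ± 10.1 CPM in siLuc libraries (SD, n = 2 each), so that 32.8% of the control level was left. A transcript was called changed at a Benjamini-Hochberg adjusted p under 0.05 in edgeR's quasi-likelihood test over all 15557 genes tested. By that rule 1422 genes fell, which is 9.14% of those tested, and 2613 rose, or 16.8%. With the trend of each library on read density removed, 2064 fell and 2169 rose.

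All 10 factors passed the filter on low counts, 7 of them fell, and 3 (LIN28A, DPPA4 and PRDM14) did not pass. None rose, at an unadjusted p under 0.05 either, nor in DESeq2. The median log2 fold change of the 10 was -0.20, against -0.0075 over all tested genes, and all 10 estimates were below 0, as were 51.4% of all tested genes. Both siUPF1 libraries lay below both siLuc libraries for 9 of the 10, against 31.1% of all tested genes, PRDM14 being the exception, and no factor had both siUPF1 libraries above both controls, against 32.3% of all tested genes. The decreases were small. They ran from 0.20 to 0.30 on the log2 scale for the 5 densely covered genes that fell, and reached 0.60 and 0.72 for the 2 sparsely covered ones. Fold changes varied less among dense genes in general. Their quartiles were -0.17 and -0.06 at 0.5 or more reads per base, against -0.17 and 0.33 for genes below the median density. Whether the estimates of dense genes are compressed was not tested. Calls depended on single libraries and on the method, for the factors and for all genes. Without control a POU5F1 stood at -0.21, SOX2 at -0.13, NANOG at -0.15 and DNMT3B at -0.25. ZFP42 stood at -0.18, UTF1 at -0.37 and DPPA2 at -0.68 in that fit. DESeq2 called 4 factors and 467 of all genes lower, against 7 and 1422 in edgeR.

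Read density separated the factors into dense and sparse. Counts divided by the transcript length behind the deposited RPKM values gave a median of 0.166 reads per transcript base over all genes. The 8 dense factors had 0.444 (NANOG), 0.446 (PRDM14), 0.519 (ZFP42), 0.579 (SOX2), 0.687 (DPPA4), 0.766 (LIN28A), 0.874 (POU5F1) and 0.888 (DNMT3B) reads per base, and the highest value of any gene with at least 100 counts was 1.12. UTF1, at 0.144, and DPPA2, at 0.137, were below the median and form the sparse pair.

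Per length of transcript, the factors kept nearly the same order in both conditions. DNMT3B stood at 80.1 ± 5.14 CPM per kb in siUPF1 libraries and 98.7 ± 5.05 CPM per kb in siLuc libraries (SD, n = 2 each), and POU5F1 at 80.3 ± 4.82 CPM per kb in siUPF1 libraries and 95.3 ± 3.81 in siLuc libraries. Neither condition set these 2 genes apart beyond the spread of its libraries. In siLuc libraries DNMT3B ranked 15 and POU5F1 ranked 21 of all genes by this measure, whose highest value was 116 CPM per kb and whose median was 16.1. No gene with at least 100 counts exceeded 1.12 reads per base. Whether counts of dense genes are capped or compressed was not tested, so these ranks may not reflect amounts of RNA. LIN28A followed with 72.4 ± 4.87 CPM per kb in siUPF1 libraries and 81.5 ± 3.66 in siLuc libraries, and DPPA4 with 65.4 ± 4.72 in siUPF1 libraries and 72.4 ± 2.96 in siLuc libraries. SOX2 (54.1 ± 0.232 CPM per kb in siUPF1, 62.2 ± 4.36 in siLuc) and ZFP42 (48.5 ± 2.71 in siUPF1, 55.7 ± 1.12 in siLuc) came next, and their libraries did not overlap in either condition. NANOG had 41.3 ± 1.49 CPM per kb in siUPF1 libraries and 47.8 ± 2.76 in siLuc libraries. PRDM14 had 43.9 ± 0.091 in siUPF1 libraries and 45.2 ± 2.89 in siLuc libraries, overlapping NANOG in siLuc. UTF1, with 11.01 ± 0.484 in siUPF1 and 18.3 ± 5.65 in siLuc libraries, and DPPA2, with 10.9 ± 0.892 in siUPF1 and 16.6 ± 1.36 in siLuc libraries, overlapped each other in both conditions and in siLuc were near the median level of all genes.

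**Figure D1:**
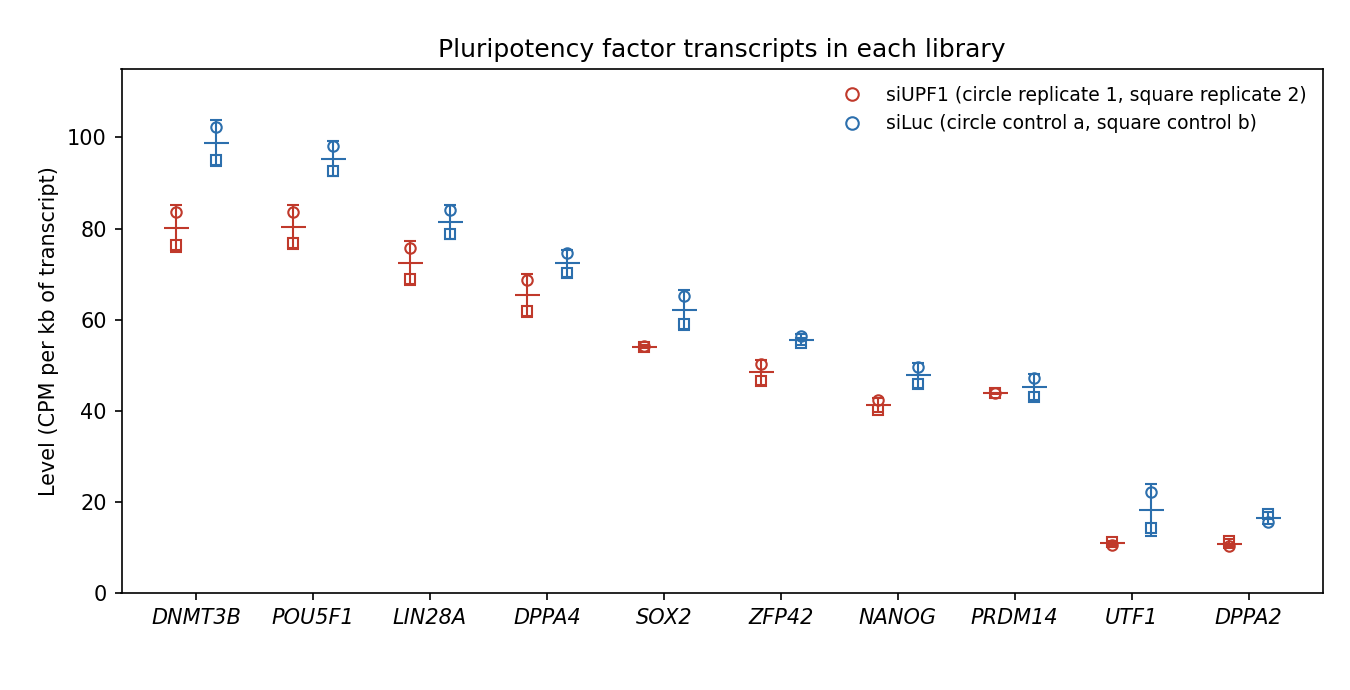
Level of each factor in CPM per kb of transcript, on a linear axis from 0. Open circles and squares are single libraries, bars and whiskers are the mean and SD of 2 libraries, and siUPF1 is drawn left of siLuc for each gene. Both siUPF1 libraries lie below both siLuc libraries for every factor except PRDM14.

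Among the core DNA-binding factors, POU5F1 had 127 and 116 CPM in siUPF1 replicates 1 and 2, against 148 and 140 CPM in controls a and b. POU5F1 fell, with a log2 fold change of -0.25 (SE 0.07; adjusted p = 0.00303 by edgeR), leaving 84.2% of the control mean. The groups did not overlap. The gap between the nearest libraries of the 2 groups, a log2 ratio of -0.15 for replicate 1 over control b, was close to the gap within siUPF1, -0.12 for replicate 2 over replicate 1.

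SOX2 had 136 and 135 CPM in siUPF1 libraries, against 163 and 148 CPM in controls a and b. It fell, with a log2 fold change of -0.20 (SE 0.07; adjusted p = 0.0228 by edgeR). The siUPF1 libraries were nearly equal and the controls stood 0.14 apart on the log2 scale, control a being higher. In DESeq2 its adjusted p was 0.127. SOX2 lies inside SOX2-OT, a long noncoding RNA gene read from the same strand, so reads of the 2 genes may not be fully separable. SOX2-OT itself had only 121 and 147 counts in siUPF1 libraries and 121 and 164 counts in siLuc libraries, at a log2 fold change of -0.26 (SE 0.16; adjusted p = 0.231 by edgeR), which did not pass.

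NANOG, a homeodomain protein, had 87.7 and 83.4 CPM in siUPF1 libraries, against 103 and 94.9 CPM in controls a and b. It fell, with a log2 fold change of -0.21 (SE 0.07; adjusted p = 0.0229 by edgeR). Without control a the adjusted p of the 3 core factors rose to 0.180 for POU5F1, 0.493 for SOX2 and 0.415 for NANOG, and without siUPF1 replicate 2 it was 0.0515 for POU5F1 and 0.0992 for NANOG (edgeR). NANOG had 0.0577 without control b and 0.179 in DESeq2.

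Reads of POU5F1 may be shared with near-identical copies of the gene. Of the 1371 stretches of 50 nt in its transcript (GENCODE release 29), 63.4% occurred unchanged in the transcript of POU5F1B, POU5F1P3 or POU5F1P4. These copies also carried many counts. POU5F1B had 674 and 669 counts in siUPF1 libraries and 674 and 731 in siLuc libraries, POU5F1P3 had 657 and 657 in siUPF1 and 672 and 718 in siLuc, and POU5F1P4 had 514 and 501 in siUPF1 and 517 and 562 in siLuc. POU5F1 itself had 1265 and 1305 counts in siUPF1 libraries and 1310 and 1404 in siLuc libraries. The log2 fold changes of the copies, -0.23 for POU5F1B, -0.25 for POU5F1P3 and -0.26 for POU5F1P4, were all within 1 SE of that of POU5F1 and passed the test, with adjusted p of 0.0172, 0.00995 and 0.0151 by edgeR. None of the 3 copies passed without control a. How a read that matches several copies was counted is not stated, so the values of POU5F1 and its copies are uncertain and are not independent of each other. NANOG shared 16.1% of its 50 nt stretches with other transcripts, those of NANOGP8 and NANOGP1 foremost, and the other factors shared under 4%.

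LIN28A, the blocker of let-7 maturation, had 303 and 276 CPM in siUPF1 libraries, against 336 and 316 CPM in controls a and b. Its log2 fold change was -0.17 (SE 0.07, unadjusted 95% interval -0.31 to -0.03) and missed the threshold (adjusted p = 0.0629 by edgeR). Both siUPF1 libraries lay below both controls. The call turned on the scaling and on single libraries, with an adjusted p of 0.0361 for scaling by library size alone and 0.0129 without siUPF1 replicate 1.

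DNMT3B, the methyltransferase, had 353 and 322 CPM in siUPF1 libraries, against 431 and 401 CPM in controls a and b, and the groups did not overlap. DNMT3B fell, with a log2 fold change of -0.30 (SE 0.07; adjusted p = 0.000296 by edgeR), the largest decrease of the 8 dense factors. It passed in 10 of 11 alternatives, and without control a its adjusted p was 0.0792. DESeq2 gave 0.000915.

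The neighbouring genes DPPA2 and DPPA4 encode paralogous chromatin proteins that work as a pair, and in mouse cells they keep developmental promoters free of DNA methylation. DPPA2 had 142 and 179 counts in siUPF1 libraries and 190 and 242 counts in siLuc libraries, or 14.2 and 15.9 CPM in siUPF1 against 21.5 and 24.1 CPM in controls a and b. It fell, with a log2 fold change of -0.60 (SE 0.14; adjusted p = 0.000166 by edgeR) to 66.1% of the control mean. This was the only factor whose call held in every alternative, 12 in all, with estimates between -0.69 and -0.52 and adjusted p between 6.42e-05 and 0.0475.

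DPPA4 had 193 and 174 CPM in siUPF1 libraries, against 209 and 198 CPM in controls a and b. Its log2 fold change of -0.15 (SE 0.07, unadjusted 95% interval -0.29 to -0.01) missed the threshold (adjusted p = 0.106 by edgeR), though its p reached 0.0179 without siUPF1 replicate 1. The 95% interval of DPPA2, -0.87 to -0.33, did not overlap that of DPPA4. The difference between the 2 genes was not tested, and DPPA4 was covered 0.687 times per base against 0.137 for DPPA2.

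UTF1, which occupies promoters in embryonic stem cell chromatin, had 123 and 147 counts in siUPF1 libraries and 227 and 165 counts in siLuc libraries, or 12.3 and 13.1 CPM in siUPF1 against 25.7 and 16.5 CPM in controls a and b. UTF1 fell, with a log2 fold change of -0.72 (SE 0.15; adjusted p = 1.57e-05 by edgeR), the largest decrease of the 10. The siUPF1 libraries were close together and the controls were 0.64 apart on the log2 scale, control a being far above control b. The estimate was -0.37 without control a, with an adjusted p of 0.261, and -1.02 without control b.

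ZFP42 (REX1), a zinc finger protein used as a marker of undifferentiated cells, had 132 and 122 CPM in siUPF1 libraries, against 148 and 144 CPM in controls a and b. It fell, with a log2 fold change of -0.20 (SE 0.07; adjusted p = 0.0212 by edgeR). It did not pass without control a (adjusted p = 0.272), without control b (0.117), without siUPF1 replicate 2 (0.161) or in DESeq2 (0.127).

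PRDM14, a zinc finger protein of pluripotent and germ cells, stood apart from the other factors in that its groups overlapped, at 102.7 and 102.4 CPM in siUPF1 libraries against 110.4 and 100.9 CPM in controls a and b. Its log2 fold change was -0.04 (SE 0.07, 95% interval -0.18 to 0.10; adjusted p = 0.718 by edgeR). It passed in none of 11 alternatives, and the sign of the estimate turned in 2 of them. The lower bound of the interval is close to the estimates of the core factors, so that PRDM14 was not shown to differ from them.

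**Figure D2:**
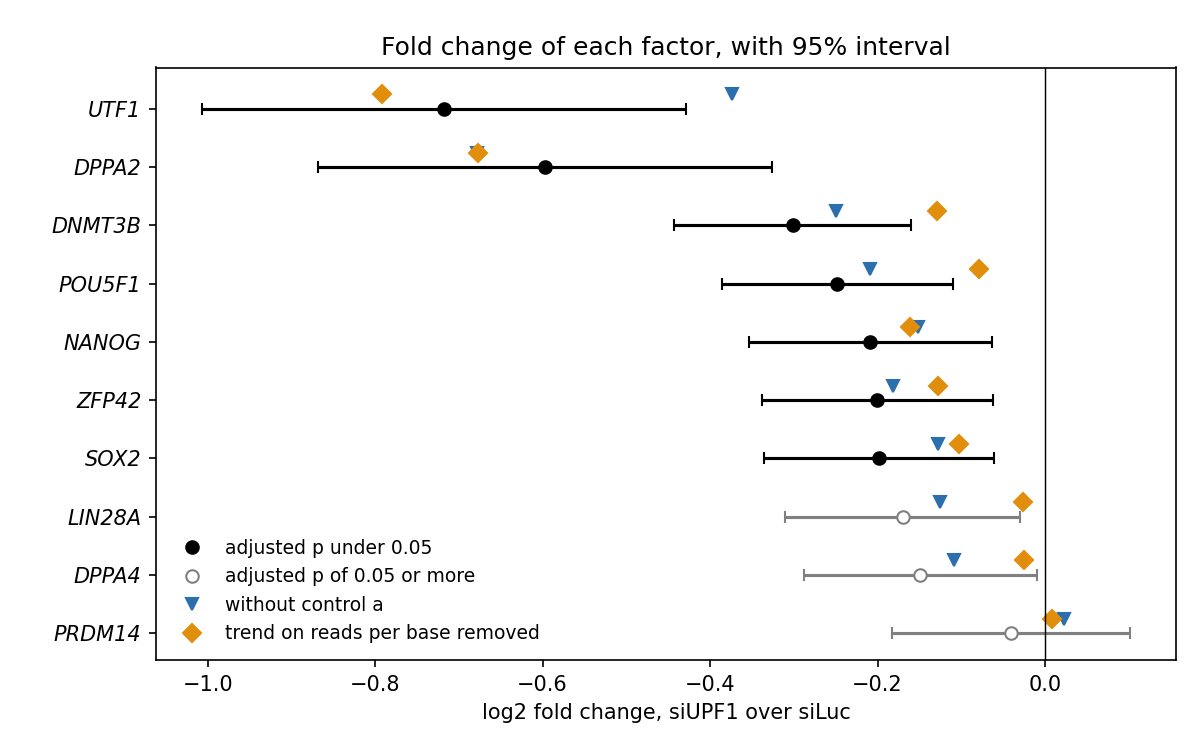
Log2 fold change of siUPF1 over siLuc for each factor, with its unadjusted 95% interval. Filled points passed an adjusted p of 0.05 and open ones did not; triangles give the estimate without control a and diamonds that with the trend on read density removed. UTF1 and DPPA2 have the largest decreases and the widest intervals, and for the 8 dense factors both alternatives lie nearer to 0.

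For dense genes a small decrease was common in these libraries. Among the 1072 tested genes with at least 0.5 reads per base, the median log2 fold change was -0.12, 15.8% fell and 2.15% rose. Of the 6 factors in that range (ZFP42, SOX2, DPPA4, LIN28A, POU5F1 and DNMT3B) 4 fell, with estimates from -0.20 to -0.30. The same median was -0.12 for siUPF1 replicate 2 over replicate 1 and -0.09 for control b over control a, the deeper library over the shallower in each pair. The factors differed among themselves in these within-group ratios. Replicate 2 over replicate 1 was between -0.15 and -0.07 for DPPA4, LIN28A, DNMT3B, POU5F1, ZFP42 and NANOG, -0.0087 for SOX2 and -0.0042 for PRDM14, and it was positive for UTF1 (0.09) and DPPA2 (0.17). Control b over control a was positive for DPPA2 (0.17) and between -0.64 (UTF1) and -0.04 (ZFP42) for the other factors. The summed level of the 10 was 1461 and 1361 CPM in siUPF1 replicates 1 and 2, against 1698 and 1583 CPM in controls a and b, a sum to which DNMT3B and LIN28A, the factors with the most counts, add most. The part of read density and depth in the decrease of the dense factors was not tested.

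The libraries nearest in depth were siUPF1 replicate 1 and control b, siUPF1 replicate 1 being 1.22% deeper, and their log2 ratio had a median of -0.012 over the genes with at least 0.5 reads per base. Over the same pair DNMT3B stood at -0.18, POU5F1 at -0.15, ZFP42 at -0.12, SOX2 at -0.12, NANOG at -0.11, LIN28A at -0.06, DPPA4 at -0.03 and PRDM14 at 0.03. The sparse pair stood at -0.77 for DPPA2 and -0.42 for UTF1. These are ratios of single libraries and have no test.

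With the trend on read density removed from each library, 5 of the 10 factors fell, as did 2064 of all 15557 tested genes. They were DPPA2 (-0.68), UTF1 (-0.79), NANOG (-0.16), DNMT3B (-0.13) and ZFP42 (-0.13), with adjusted p of 0.00233, 0.0219, 0.0345, 0.0277 and 0.0493 by edgeR. POU5F1 stood at -0.08 (adjusted p = 0.193), SOX2 at -0.10 (0.150), LIN28A at -0.03 (0.624) and DPPA4 at -0.03 (0.658). For the sparse pair the density range gave a different background. Among the 7588 tested genes below the median density the median log2 fold change was 0.06, 9.57% fell and 21.7% rose, and both UTF1 and DPPA2 fell. Among the 6897 tested genes between these ranges, where NANOG and PRDM14 lie and 1 of these 2 fell, 7.64% fell and the median was -0.02.

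**Figure D3:**
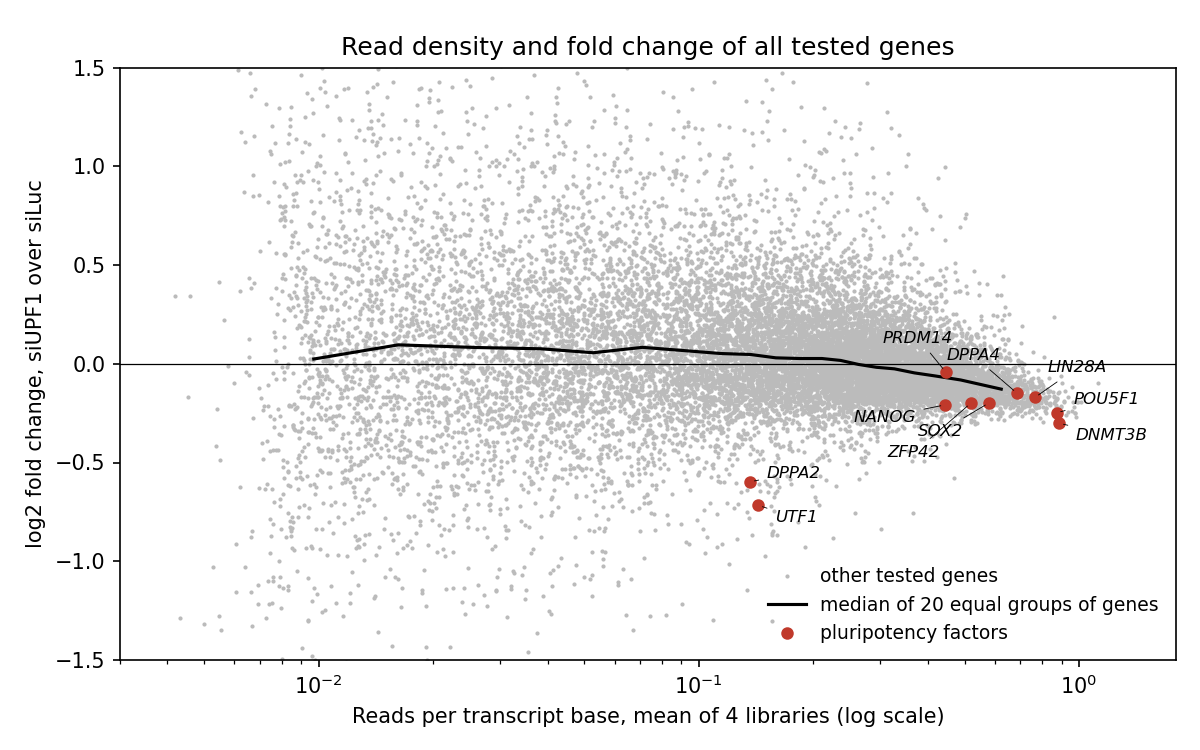
Log2 fold change of siUPF1 over siLuc against reads per transcript base (log axis, mean of 4 libraries) for all 15557 tested genes in grey, with the 10 factors in red and the median of 20 equal groups of genes as a line; 178 genes beyond 1.5 on either side are not drawn. The line falls below 0 on the right, where the 8 dense factors lie; PRDM14 is just above it, and UTF1 and DPPA2, further left, are the factors farthest below it.

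For each gene, 1 transcript was searched for an exon junction well after the stop codon, the best known trigger of nonsense-mediated decay. It was the GENCODE transcript with the longest coding sequence that matched the RefSeq models of the table. There 0 of the 10 factors had a junction more than 50 nt after the stop codon, a feature of 0.556% of 13850 coding genes. At so low a share 0 of 10 does not set the factors apart, and other isoforms were not searched for it. The 3' UTR was longest in NANOG (4046 nt) and LIN28A (3264 nt), over the upper quartile of 2218 nt, and shortest in UTF1 (116 nt) and DPPA2 (239 nt), the genes with the largest decreases. The NANOG model of the table was shorter, with 2070 nt in all against 5183 nt in GENCODE. Upstream AUG codons were present in the 5' UTR of 6 factors (NANOG, ZFP42, SOX2, LIN28A, PRDM14 and DPPA2), against 50.5% of coding genes. Of the 8 GENCODE transcripts of DPPA4, 1 is annotated as a target of this decay, and counts per gene do not resolve it.

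Other regulators of the pluripotent state came from a list of 25 genes that excludes the 10 factors. In that list 10 genes fell, 1 rose and 14 did not pass, with a median log2 fold change of -0.16. Of all tested genes 9.14% fell and 16.8% rose, which is the background for this list and those that follow. A list whose counts lie near these shares is not set apart by them. SOX15, a SOX factor related to SOX2, rose with 18.0 ± 0.054 CPM in siUPF1 libraries and 8.75 ± 1.17 CPM in siLuc libraries (SD, n = 2 each), a log2 fold change of 1.04 (SE 0.16). HESX1, a homeobox gene, fell with 9.46 ± 0.358 CPM in siUPF1 and 17.8 ± 1.79 CPM in siLuc libraries, a log2 fold change of -0.91 (SE 0.16), and both kept their call in all 12 alternatives. The proto-oncogene MYCN fell by 0.31 (SE 0.07), but its adjusted p was 0.153 without control a (edgeR). Without control a the list had 2 fallers, and DESeq2 called 5.

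Factors of the naive state, which primed embryonic stem cells such as H9 express little of, moved in both directions. Of 12 listed genes 7 were in the table and 6 were tested, of which 4 rose and 2 fell. KLF5 rose with 27.5 ± 6.45 CPM in siUPF1 and 10.6 ± 2.14 CPM in siLuc libraries, a log2 fold change of 1.36 (SE 0.14), and TFAP2C by 0.66 (SE 0.10). DPPA3 (STELLA) fell by 1.09 (SE 0.21), with 4.64 ± 0.514 CPM in siUPF1 and 9.83 ± 0.626 CPM in siLuc libraries. These 3 passed in all 12 alternatives. Of the list, 2 genes rose when either control was left out, and DESeq2 called 2 higher and 1 lower.

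Surface and secreted markers of undifferentiated cells numbered 16, of which 6 fell, 1 rose and 9 did not pass, with a median log2 fold change of -0.12. LEFTY1 and LEFTY2, inhibitors of the Nodal signal, and the growth factor gene GDF3 had the smallest p and fell by 0.84 (SE 0.09), 0.70 (SE 0.09) and 0.88 (SE 0.12). Each passed in all of its alternatives. The list had 3 fallers without control a and 3 in DESeq2.

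Of 11 tested genes of the DNA methylation machinery other than DNMT3B, 2 fell and 2 rose. UHRF1, which brings the maintenance methyltransferase to replicating DNA, fell by 0.29 (SE 0.07) and the oxidase gene TET1 by 0.24 (SE 0.07), while ZBTB38, which encodes a reader of methylated DNA, rose by 0.42 (SE 0.08). Without control a no gene of this list fell and 1 rose, and neither UHRF1 (adjusted p = 0.0952) nor TET1 (0.201) passed edgeR's test. Of 14 Polycomb genes 3 fell and 1 rose, with RBBP4 at -0.28 (SE 0.07), PHC1 at -0.22 (SE 0.07) and PHF19 at 0.85 (SE 0.08). With either control or siUPF1 replicate 2 left out, 1 Polycomb gene fell.

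Cofactors of OCT4 and NANOG, a list of 21 remodelling and corepressor genes, had 8 fallers and no riser, beside 9.14% of all tested genes that fell, with estimates from -0.23 to 0.11. ARID1A fell by 0.23 (SE 0.07), CTBP2 by 0.23 (SE 0.07) and TRIM28 by 0.22 (SE 0.07). The riser count of 0 compares with 0 at an unadjusted p under 0.05 and 0 in DESeq2, which called 3 lower. Without control a no gene of this list fell and 1 rose (edgeR), and 4 fell when control b or siUPF1 replicate 2 was left out. Of 15 tested genes of the LIN28 and let-7 axis 2 fell, TRIM71, also on the list of other regulators, by 0.24 (SE 0.07) and HMGA1 by 0.19 (SE 0.07), with none without control a and 4 without siUPF1 replicate 1. HMGA1 had 0.996 reads per base, and once the density trend was removed its log2 fold change was -0.0012.

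**Figure D4:**
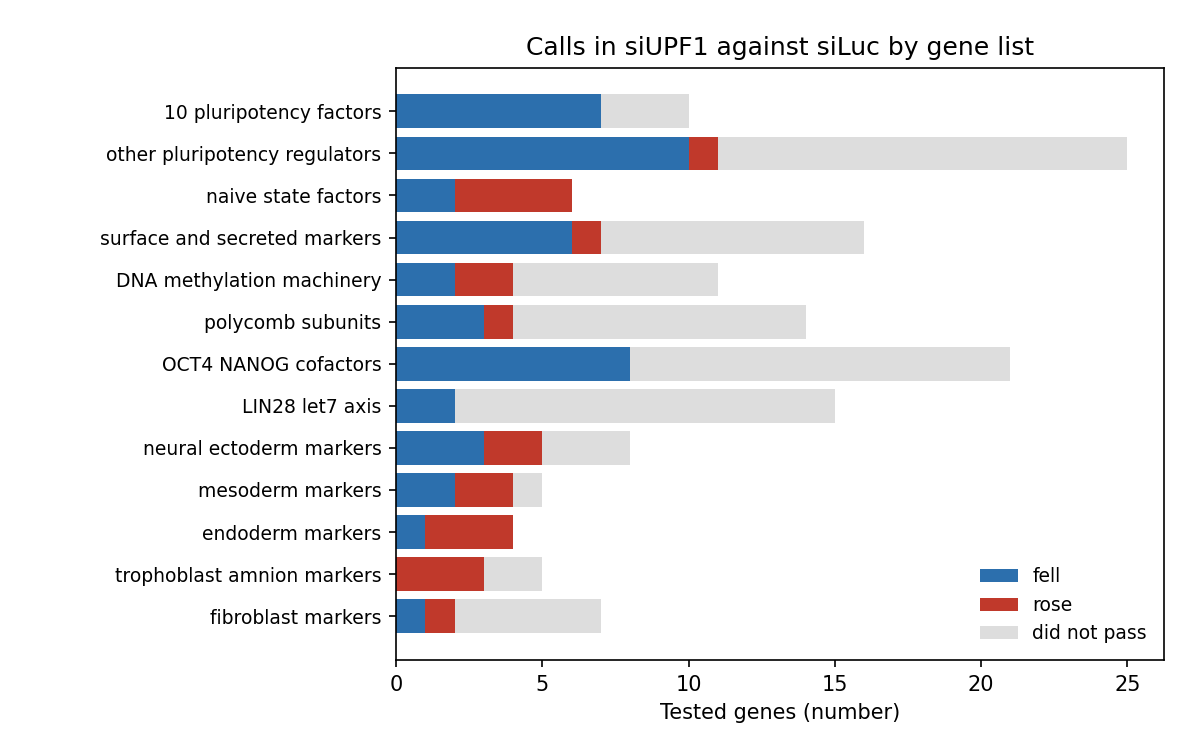
Number of tested genes that fell, rose or did not pass an adjusted p of 0.05 in siUPF1 against siLuc (edgeR), for the 10 factors and 12 further gene lists. Fallers outnumber risers most among the 10 factors (7 to 0), the other regulators (10 to 1) and the cofactors (8 to 0), and risers outnumber fallers among naive state, endoderm and trophoblast genes. Of all tested genes 9.14% fell and 16.8% rose. The shares were 15.8% and 2.15% at 0.5 or more reads per base, and 9.57% and 21.7% below the median density. The part of read density in the balance of each list was not tested.

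All 10 factors, which are also the markers of undifferentiated cells, were counted in every library. Of the listed markers of other cell types, many were missing or low and some were not. In controls a and b NES had 346 and 325 CPM, KDR 185 and 191, and THY1 185 and 170. FBLN1 had 178 and 162, COL1A2 164 and 158, and COL1A1 160 and 156, against 148 and 140 for POU5F1. CPM do not allow for transcript length, so these values do not rank the genes. Per length of transcript POU5F1 averaged 95.3 CPM per kb in siLuc libraries, above THY1 (78.0) and FBLN1 (58.4). Levels per kb are not given here for NES, KDR, COL1A1 and COL1A2. In bulk RNA fewer cells of a type and less RNA per cell cannot be told apart. Summed over the genes of each list in the table, endoderm markers reached 59.1 and 44.0 CPM in siUPF1 libraries and 29.9 and 30.7 CPM in siLuc libraries, and trophoblast and amnion markers 54.6 and 53.6 CPM in siUPF1 and 38.5 and 39.8 CPM in siLuc. Mesoderm markers summed to 204 and 204 CPM in siUPF1 and 221 and 231 CPM in siLuc, mostly from KDR, and neural markers to 582 and 557 CPM in siUPF1 and 634 and 619 CPM in siLuc, mostly from NES, which stem cells also express. Fibroblast markers were level, at 736 and 706 CPM in siUPF1 and 746 and 714 CPM in siLuc.

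These lists held 4 endoderm genes in the table of 10 listed, 6 of 12 for trophoblast and amnion, 5 of 12 for mesoderm (T and TBXT being names of 1 gene), 8 of 12 for neural ectoderm and 7 of 10 for fibroblasts. SOX17, GATA4, GATA6, EOMES, MESP1, CDX2, ISL1, COL3A1, DCN and LUM were not in the table used here. Of the endoderm genes 3 rose and 1 fell. CER1, a secreted Nodal and BMP antagonist, rose by 1.13 (SE 0.13) and AFP by 0.88 (SE 0.18), while the pioneer factor gene FOXA2 fell by 2.97 (SE 0.37), with 6 and 6 counts in siUPF1 libraries against 44 and 41 in siLuc libraries. Of 5 tested trophoblast and amnion genes 3 rose, GATA3 by 1.19 (SE 0.26), IGFBP3 by 0.49 (SE 0.12) and CGA by 1.39 (SE 0.51), the last on 11 and 16 counts in siUPF1 and 3 and 6 in siLuc libraries. Without control a 1 of them rose, and IGFBP3 (adjusted p = 0.0539) and CGA (0.334) did not pass edgeR's test. Neural genes DCX (-1.11, SE 0.10) and NCAM1 (-0.76, SE 0.09) fell and SOX21 (0.78, SE 0.17) rose. Among mesoderm genes MSX2 (0.82, SE 0.17) rose and PDGFRA (-0.61, SE 0.14) and MIXL1 (-0.82, SE 0.25) fell, MIXL1 not passing without control b (adjusted p = 0.180, edgeR) or in DESeq2 (0.197), while of 7 fibroblast genes PDGFRB rose by 0.40 (SE 0.09), FBLN1 fell by 0.21 (SE 0.07) and THY1 (-0.10, SE 0.07) did not pass, and without control a neither PDGFRB (adjusted p = 0.215) nor FBLN1 (0.420) passed edgeR's test. What part cell composition has in the changes of the factors was not tested.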

How the data were processed

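RNA of H9 cells was extracted with Trizol, checked on a Bioanalyzer and sequenced from Illumina libraries, per the labels' protocols. A single table served for all results. Raw read counts per gene, whole numbers with no scaling, are what the authors deposited for each library, next to RPKM values (reads per kilobase, scaled to library size) that the authors deposited in further columns. STAR, DESeq2 and hg19 are named in the submitters' processing notes, without versions or roles. Neither strand nor the treatment of multimapping reads is given in the sources used here. Both control count columns carry 1 name, so controls have no replicate numbers, and 2 control RPKM columns were not used.

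The main test was the quasi-likelihood test of edgeR 4.0.16 (glmQLFit and glmQLFTest, two-sided, TMM, filterByExpr) in R 4.3.3. It kept 15557 genes and dropped 385, and p-values were adjusted over all genes tested (Benjamini-Hochberg, threshold 0.05). SE is the log2 fold change divided by the square root of F. Transcript length was taken from siUPF1 counts, RPKM and library totals, and CPM per kb is TMM-scaled CPM over that length. The biological coefficient of variation was 4.47%. Counts within a group varied beyond sampling noise, with a chi-square over degrees of freedom of 2.83 for siUPF1 and 1.69 for siLuc, and all 4 were kept as separate libraries. Counting error is largest for UTF1 and DPPA2.

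Tested on data simulated for siUPF1 against siLuc with 200 changed genes among 15478, edgeR recovered 92% of 2-fold changes and 75% of 1.41-fold changes and made 7 false calls. This gives no recovery for smaller changes, and the 5 dense factors that fell changed only 1.15-fold to 1.23-fold.

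Alternatives were DESeq2 1.42.0, limma-voom (limma 3.58.1), RLE factors, library size alone, no low-count filter, an adjusted p of 0.1, a minimum of 5 CPM in 2 libraries, each library left out, a fit with the trend of each library on reads per base removed (loess, span 0.3), and a fit on genes under 0.25 reads per base. The members, lists and tests were chosen with earlier results of these data known. Genes named from a list are the 3 with the smallest p in it. The POU5F1 copies, SOX2-OT and the motifs were added after values were seen. Promoters are from RefSeq on GRCh38.p14 and transcript features from GENCODE 29 on GRCh38. Neither build is that of the counts, and no coordinates were carried between them.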

Additional observations from a re-analysis of the deposited data

How the results depend on the processing

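No paired analysis was possible because both control columns carry the same name and no replicate number, so the fit with a replicate block was not run. Among the 10 factors 7 fell. DESeq2 called 4, and leaving out 1 library gave 1 to 9, fewest without control a. A fit on genes under 0.25 reads per base holds only UTF1 and DPPA2 of the 10, and these 2 fell. No factor rose under any alternative run. Over all genes 2613 rose and 1422 fell, against 1280 and 467 in DESeq2. With 1 library left out the counts ran from 1444 to 2764 for risers and from 552 to 1522 for fallers. Under 0.25 reads per base 1682 rose, where fewer genes are tested, and the cause of the other differences was not tested. The log2 fold change of PRDM14, which passed under no alternative, ran from -0.11 to 0.023 with 1 library left out, turning positive without control a, and was 0.0077 with the density trend removed. That of THY1, which also never passed, was 0.042 with the density trend removed. When a library is left out, the lone library of its group is assumed to vary like the other group. Depth limits UTF1 and DPPA2 most, and 2 libraries against 2 cannot reach an exact permutation p under 0.333.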

Other observations

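NANOG and PRDM14, which lie next to each other in level per length of transcript, changed order between the conditions. PRDM14 was at 44.0 and 43.8 CPM per kb in siUPF1 libraries where NANOG was at 42.4 and 40.3, and at 47.3 and 43.2 CPM per kb in controls a and b where NANOG was at 49.7 and 45.8. NANOG was thus the higher of the 2 in both siLuc libraries and the lower in both siUPF1 libraries. That order depends on the transcript lengths used. In CPM, with no length correction, PRDM14 was the higher in every library of both conditions. The length used for NANOG was 2070 nt, against 5183 nt for its GENCODE transcript. The difference between the genes was not tested.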
